A study of Mus musculus with 8 samples.

Results

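The genes described here are p53, its classical targets and the core of the apoptosis machinery, 32 genes chosen by name among the 78317 genes of a TPM table (transcripts per 1000000, which allows for transcript length and library). All 32 were found: 16 encode p53, its targets and death receptors, 7 encode BH3-only proteins, 2 form mitochondrial pores, 2 promote survival, and 5 belong to the caspase step. RNA came from the cochlear basilar membrane, the strip that carries the sensory epithelium, of mice at postnatal day 6. Homo libraries, 4 in number, carry the genotype label of a Dnajc17 conditional knockout, and 4 hete libraries carry the label of wild type. Whether hete animals carry a mutant allele is not stated. Dnajc17 encodes a co-chaperone of the J-domain family that can also bind RNA; neither the Cre driver nor the deleted part is given in the sources used here. Nothing in the labels says that libraries of a group came from separate animals, so p-values measure the spread between libraries, which may be technical. The question put to these genes is whether a death programme can be seen in whole tissue at this age.

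In healthy cells, p53 is made all the time and destroyed by the ubiquitin ligase Mdm2, itself a p53 target. When damage stabilises p53, targets such as Cdkn1a, Mdm2, Bbc3 and Bax are transcribed. BH3-only proteins then release Bax and Bak1 from pro-survival relatives, mitochondria let out cytochrome c and Diablo, and Apaf1 with Casp9 starts the caspase cascade. In the cochlea this route is known from hair cells exposed to cisplatin or aminoglycoside antibiotics. Much of p53 activation and all caspase cleavage happen to proteins, which RNA levels do not report.

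Libraries were alike in the number of genes listed and in their mitochondrial share. Each library listed 28159 to 28969 genes above 0, and mitochondrial transcripts made up 8.69 to 10.1% of TPM in homo and 9.15 to 10.4% in hete. TPM keeps no record of depth, so the depth is unknown. Dnajc17 itself stood at 29.3, 27.7, 31.1 and 18.04 TPM in homo replicates 1 to 4, against 26.5, 25.5, 25.1 and 22.1 TPM in hete replicates 1 to 4. Its log2 fold change was 0.07 with an SE of 0.15 (adjusted p = 0.969 by limma-trend), and a level over the whole gene does not check a deletion of part of it in part of the cells. Markers of the labelled tissue were present: all 14 hair cell markers and all 12 supporting cell markers were above 0 in every library. The hair cell markers summed to 336 to 502 TPM in homo and 432 to 621 TPM in hete, so their ranges overlapped. Of the 13 tested hair cell markers, 9 had a log2 fold change below 0 and 4 above, 0 were called, and the 2 with an unadjusted p under 0.05 were both below, Ocm at -0.92 (SE 0.34) and Otof at -0.30 (SE 0.10). Of the 12 supporting cell markers, 10 were above 0 and 0 were called. Tecta, Tectb and Otog, 3 of the 12, had no overlap between groups, with log2 fold changes of 0.56, 0.21 and 0.28. Markers of spiral ganglion neurons summed to 272 to 506 TPM in homo and 222 to 390 TPM in hete. Glia markers summed to 1037 to 1932 TPM in homo and 1058 to 1746 TPM in hete. All 10 neuron markers and 8 of 9 glia markers had log2 fold changes above 0, with 0 called. An unadjusted p under 0.05 by limma-trend was found for 3 neuron markers and 1 glia marker, all above 0. Of all tested genes, 3.99% had no overlap, 6.05% had an unadjusted p under 0.05 by limma-trend, and 56.3% were above 0. The part of these cell types in the members' values was not tested. In whole tissue, fewer cells of a type and less RNA per cell cannot be told apart, and a change in a small share of cells is diluted by the rest.

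No member was called changed between homo and hete. Of the 32 members, 29 averaged 1 TPM or more in the 8 libraries together and were tested, and 0 of the 29 had an adjusted p under 0.05 by limma-trend on log2(TPM + 1). The smallest adjusted p among them was 0.87, and 0 of the 29 had an unadjusted p under 0.05. Over all 17811 tested genes, 0.0112% were called, namely Metap1d and the pseudogene Gm4353, and 6.05% had an unadjusted p under 0.05. The members' log2 fold changes ran between -0.27 and 0.14, with 18 above 0 and 11 below, where 56.3% of all tested genes were above 0. Their median was 0.04 and that of all tested genes 0.02. The intervals bound the size of a difference: for 28 of the 29 the 95% interval of the log2 fold change lay within 1.5-fold in either direction. Of all tested genes 77.5% had such an interval, and of the 13671 with a mean level inside the members' own range, 2.46 to 131 TPM, 84.7% had. These intervals apply to single genes, without adjustment for their number, and the added 1 TPM makes the fold changes of the lowest genes look smaller than they are.

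**Figure D1:**
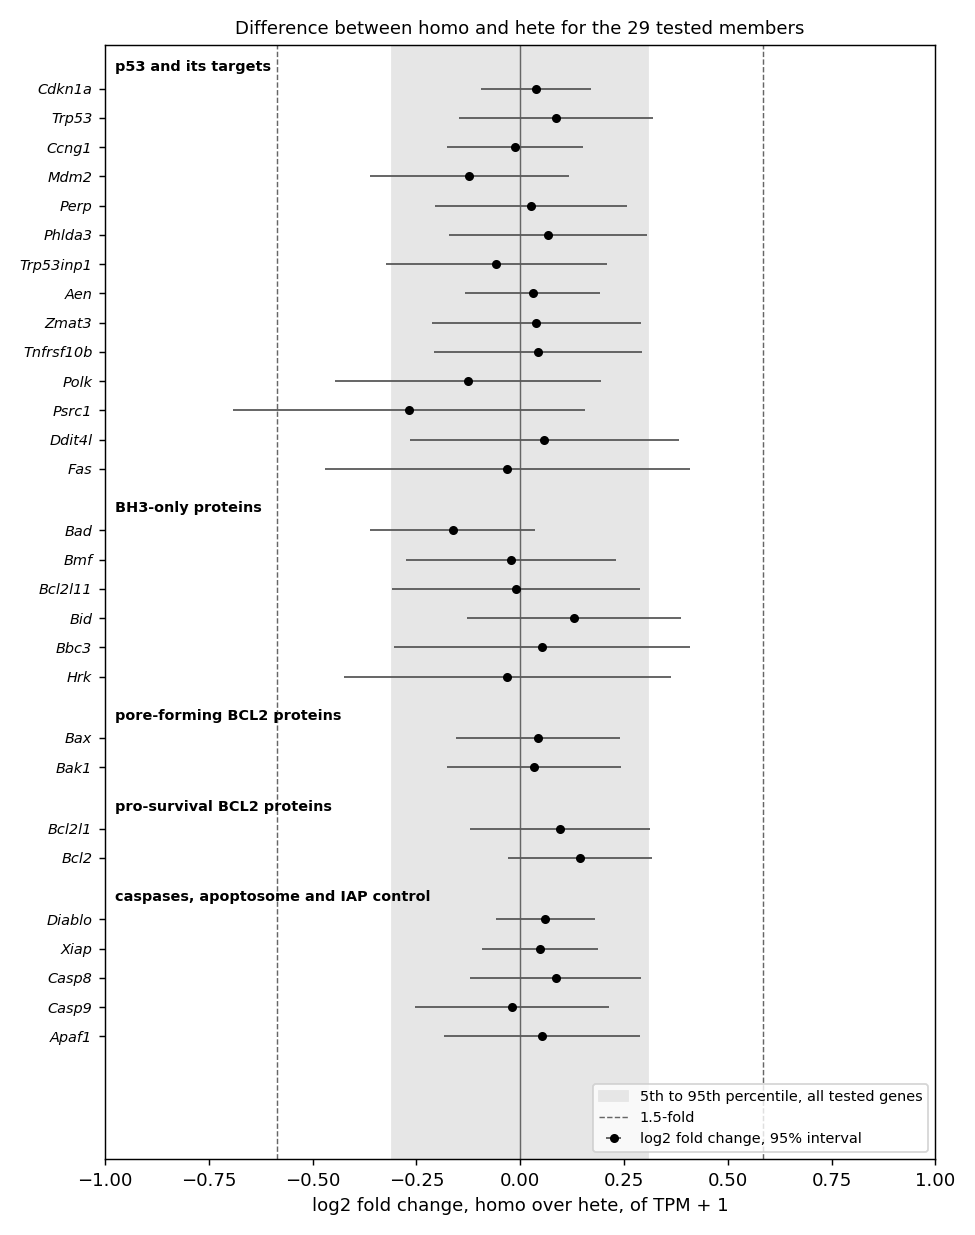
Log2 fold change of TPM + 1, homo over hete, for each of the 29 tested members (points) with its 95% interval (bars), grouped by role and ordered by level within a role. The grey band holds the middle of all tested genes (5th to 95th percentile, -0.31 to 0.31), dashed lines mark 1.5-fold, and only the interval of Psrc1 crosses a dashed line.

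Levels differed far more between members than between groups. Cdkn1a had the highest mean level, followed by Bax, Bad, Diablo and Trp53, all above 60 TPM on average in both groups. At the other end, 3 members averaged under 1 TPM and were not tested. Eda2r, a receptor of the TNF family, had 0.95, 0.70, 0.91 and 1.07 TPM in homo replicates 1 to 4 and 1.15, 0.74, 1.09 and 0.96 TPM in hete replicates 1 to 4. Gdf15, a secreted stress cytokine, had 0.64, 1.26, 0.74 and 0.15 TPM in homo replicates 1 to 4 and 0.64, 0.45, 0.26 and 0.78 TPM in hete replicates 1 to 4. Pmaip1, the BH3-only protein Noxa, had 0.49, 0.55, 0.15 and 0.13 TPM in homo replicates 1 to 4 and 0.18, 0.92, 0.39 and 0.49 TPM in hete replicates 1 to 4. Groups overlapped for all of these low genes. Fitted with no filter on low values, their log2 fold changes were -0.06 (SE 0.14) for Eda2r, 0.12 (SE 0.22) for Gdf15 and -0.16 (SE 0.19) for Pmaip1.

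**Figure D2:**
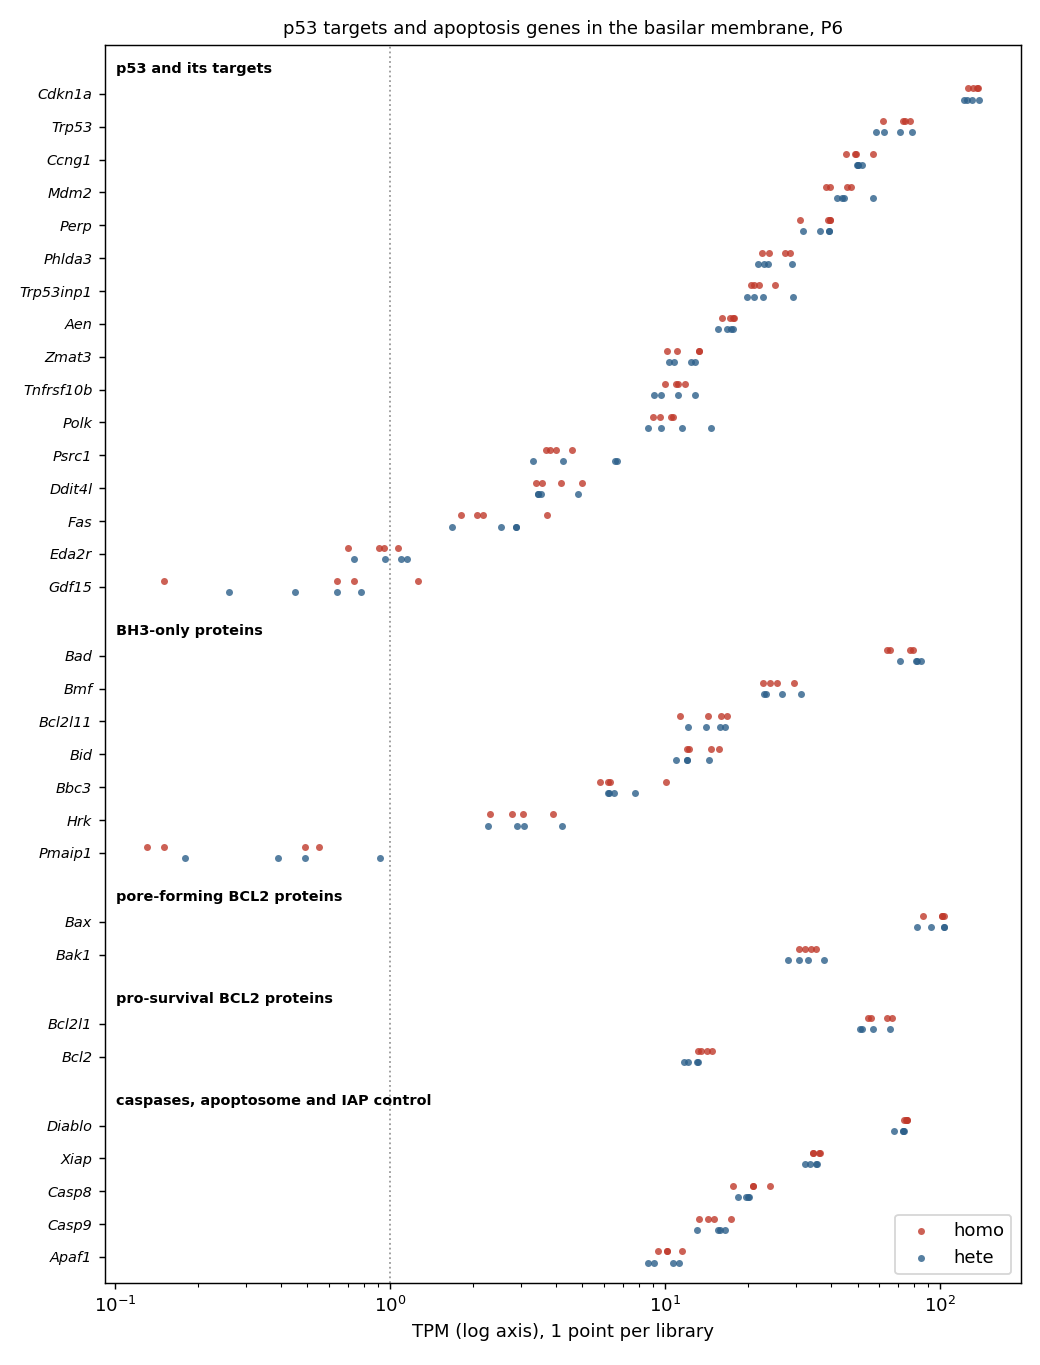
TPM of each of the 32 members on a log axis, 1 point per library, with the 4 homo libraries drawn above the 4 hete libraries in each line. The points of both groups lie over each other in nearly every line, from Pmaip1 near 0.13 TPM to Cdkn1a near 138 TPM, and the dotted line marks 1 TPM.

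Among p53 and the genes that it induces, the regulator is described first. Trp53 had 77.7, 74.3, 73.3 and 62.1 TPM in homo replicates 1 to 4, against 62.4, 78.9, 71.5 and 58.5 TPM in hete replicates 1 to 4. Both groups covered nearly the same range, and the log2 fold change was 0.09 by limma-trend (95% interval -0.15 to 0.32, SE 0.10, adjusted p = 0.934). Cdkn1a, which encodes the cyclin-dependent kinase inhibitor p21 and helps to keep cochlear sensory cells out of the cell cycle in mice, had 137, 131, 136 and 126 TPM in homo replicates 1 to 4. In hete replicates 1 to 4 it had 125, 131, 122 and 138 TPM. Its spread was among the lowest of the members, with a coefficient of variation of 3.67% in homo and 5.47% in hete, and its log2 fold change was 0.04 (95% interval -0.09 to 0.17, SE 0.06). Cdkn1a was the member with the highest level and, after Diablo, the smallest standard error.

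Some starts of these genes carry the letters that p53 binds. The p53 half-site, a 10-base motif that equals its own reverse complement, was searched on both strands in windows of 300 bases, 250 of them before the start, from RefSeq on GRCm38.p6, an older build than the GRCm39 of the TPM table. Of the 27 members with such a window, 9 held a half-site (33.3%), against 9.55% of the 27025 genes in the table. A gene counted if any of its windows held one, and the 27 members had 42 windows. Many members were chosen as known p53 targets, so their higher share is not a result about these libraries. A pair of half-sites at most 13 bases apart was found in 1 member, Cdkn1a, and in 0.074% of all genes. The stretches are shown because they are the members' own p53-type letters, with half-sites in capitals, 5′ to 3′ along the gene:
Cdkn1a, chr17:29090896-29090947, plus strand: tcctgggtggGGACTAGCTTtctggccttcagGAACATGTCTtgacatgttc
Mdm2, chr10:117710925-117710954, minus strand: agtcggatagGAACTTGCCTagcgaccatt
Ccng1, chr11:40755452-40755481, minus strand: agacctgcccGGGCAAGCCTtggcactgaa
Bax, chr7:45467080-45467109, minus strand: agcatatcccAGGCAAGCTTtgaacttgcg
Trp53, chr11:69580274-69580303, plus strand: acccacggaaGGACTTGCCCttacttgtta
The 2 exact Cdkn1a half-sites lie 73 and 51 bases before 1 of its 2 annotated starts and are 12 bases apart. Capitals mark exact matches only. The 10 bases right after the Cdkn1a half-site nearer the start miss the motif only at their first base and stay in lower case. Which of these Cdkn1a stretches would form a pair was therefore not settled by the search. Half-sites were also found for Aen, Bmf, Ddit4l and Polk. A match describes letters and is not evidence of binding. The log2 fold changes of these 9 members ran between -0.13 and 0.09.

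Mdm2 stood at 46.0, 38.3, 47.4 and 39.9 TPM in homo replicates 1 to 4, against 42.0, 44.0, 44.7 and 56.8 TPM in hete replicates 1 to 4. Hete replicate 4 held the highest value and the other 7 libraries lay together. The log2 fold change was -0.12 with an SE of 0.11 (adjusted p = 0.905 by limma-trend), and -0.03 without hete replicate 4. Relative to Trp53, Mdm2 had a TPM ratio of 0.60 ± 0.06 in homo and 0.71 ± 0.18 in hete (SD, n = 4 each), with 0.97 in hete replicate 4 and 0.52 to 0.67 in the other libraries of both groups.

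The same library stood out for other targets. Trp53inp1, a stress-induced partner of p53, had 24.97, 21.9, 21.1 and 20.4 TPM in homo replicates 1 to 4 and 22.8, 19.8, 21.0 and 29.2 TPM in hete replicates 1 to 4. Polk, a DNA polymerase that copies past damaged bases, had 10.7, 9.01, 9.60 and 10.46 TPM in homo replicates 1 to 4 and 11.51, 8.68, 9.61 and 14.6 TPM in hete replicates 1 to 4. Both had their highest value in hete replicate 4. Without that library, the log2 fold change was 0.05 in place of -0.06 for Trp53inp1, and 0.01 in place of -0.13 for Polk. Hete replicate 4 held the highest value of 6 of the 29 tested members and the lowest of 6 others. Homo replicate 1 held the highest value of 7 members and the lowest of 1, and without it the median log2 fold change of the members was 0.0042 in place of 0.04. Hete replicate 4 also held the highest summed hair cell markers, 621 TPM, and the lowest erythroid sum, 2467 TPM, and the part of tissue make-up in these values was not tested.

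Psrc1, a microtubule-associated target, had the most negative log2 fold change. It had 4.57, 3.68, 3.81 and 3.99 TPM in homo replicates 1 to 4, against 4.26, 6.70, 6.55 and 3.30 TPM in hete replicates 1 to 4. The homo values lay close together, while hete replicates 2 and 3 lay above and hete replicate 4 below all of them. By limma-trend the log2 fold change came to -0.27 (95% interval -0.69 to 0.16, SE 0.19, adjusted p = 0.874), between -0.43 without hete replicate 4 and -0.15 without hete replicate 2.

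**Figure D3:**
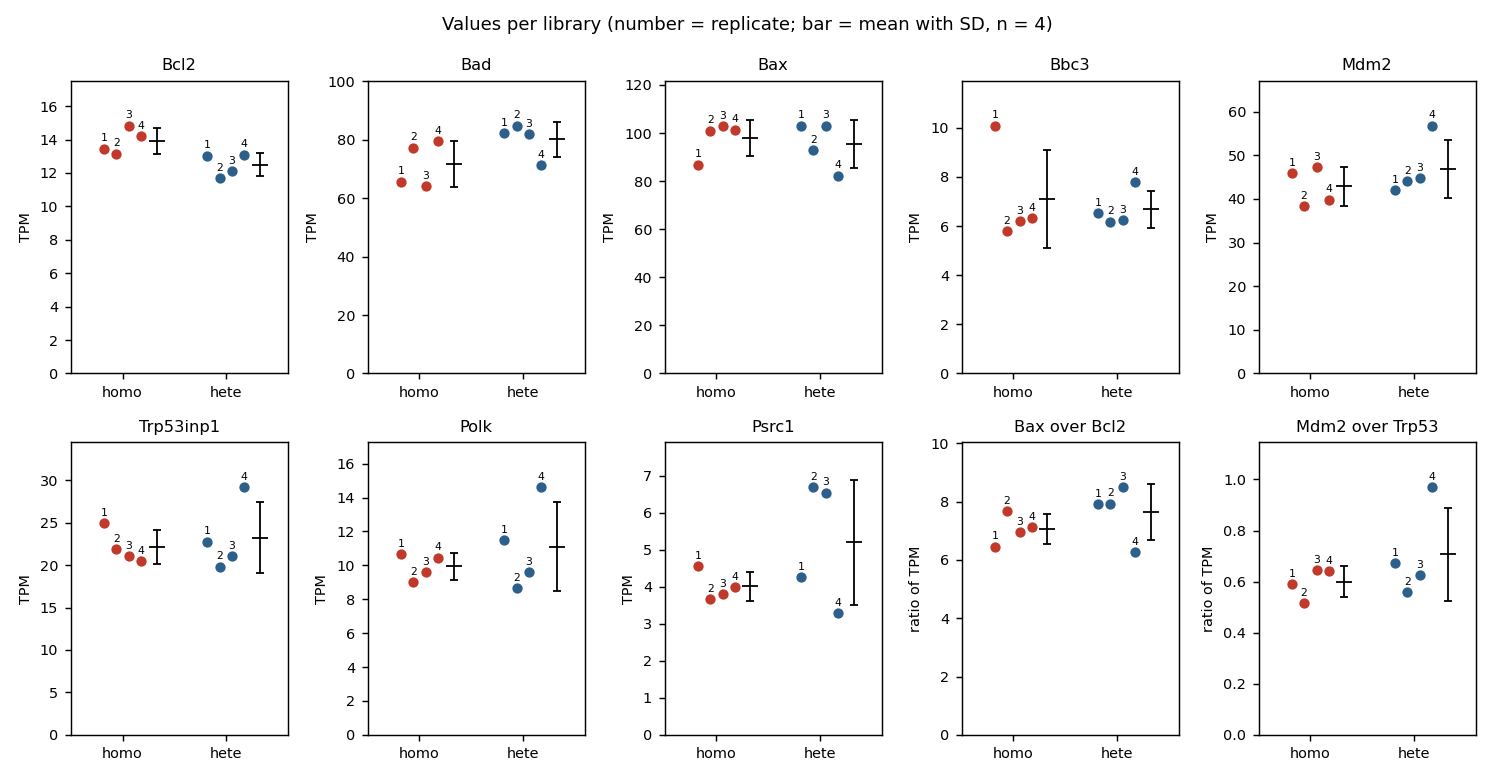
TPM of 8 members, and the TPM ratios of Bax over Bcl2 and of Mdm2 over Trp53, in each library, with homo left of hete. Points carry their replicate number, bars give mean and SD (n = 4), and all axes start at 0; Bcl2 is the 1 gene whose groups do not overlap, and hete replicate 4 is highest for Mdm2, Trp53inp1 and Polk.

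The remaining targets lay within their spread. Ccng1 (cyclin G1) averaged 50.3 ± 4.86 TPM in homo and 50.5 ± 0.92 TPM in hete (SD, n = 4 each). Perp, a membrane protein of cell junctions, averaged 37.5 ± 4.33 TPM in homo and 36.7 ± 3.68 TPM in hete. Phlda3, an inhibitor of the kinase Akt, averaged 25.5 ± 2.84 TPM in homo and 24.3 ± 3.11 TPM in hete. Aen, an apoptosis-enhancing nuclease, Zmat3, an RNA-binding zinc finger protein, and Ddit4l, an inhibitor of mTOR signalling, had log2 fold changes between 0.03 and 0.06. None of these groups separated.

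Death receptors that p53 can induce were low to moderate. Fas had 2.06, 2.18, 1.81 and 3.71 TPM in homo replicates 1 to 4 and 1.68, 2.52, 2.86 and 2.86 TPM in hete replicates 1 to 4. Its log2 fold change was -0.03 with the widest error among the tested members (95% interval -0.47 to 0.41, SE 0.20). Tnfrsf10b, the mouse TRAIL receptor, averaged 11.0 ± 0.76 TPM in homo and 10.7 ± 1.69 TPM in hete (SD, n = 4 each; log2 fold change 0.04, SE 0.11). A processed pseudogene, Gm15574, matched 405 bases of the Tnfrsf10b transcript at 97.5% identity and is listed at 0 in all libraries.

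Of the BH3-only genes, which sense damage or lost survival signals and switch on Bax and Bak1, Bad was the most abundant. It encodes a protein held inactive by survival signalling. Bad had 65.7, 77.3, 64.1 and 79.6 TPM in homo replicates 1 to 4, against 82.4, 84.9, 81.9 and 71.4 TPM in hete replicates 1 to 4. Homo replicates 1 and 3 lay below all hete libraries, while homo replicates 2 and 4 lay above hete replicate 4. By limma-trend the log2 fold change came to -0.16 (95% interval -0.36 to 0.04, SE 0.09, adjusted p = 0.87). Bbc3, the p53 target Puma, had 10.1, 5.80, 6.21 and 6.31 TPM in homo replicates 1 to 4 and 6.52, 6.18, 6.23 and 7.79 TPM in hete replicates 1 to 4. Homo replicate 1 stood apart at the top, and the other homo libraries lay within or just below the hete range. The log2 fold change of Bbc3 was 0.05 (SE 0.16), and -0.11 without homo replicate 1. That library also had the highest granulocyte marker sum, 58.0 TPM over 8 genes, against 12.01 to 17.98 TPM in the other homo libraries and at most 8.49 TPM in hete; of the 8, Mpo, Elane and Retnlg were listed at 0 in some libraries, and the part of these cells was not tested.

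Bcl2l11, which encodes Bim, a strong activator of Bax, averaged 14.6 ± 2.40 TPM in homo and 14.6 ± 1.97 TPM in hete (SD, n = 4 each; log2 fold change -0.01, SE 0.13). Bid, which links death receptors to mitochondria once cut by Casp8, averaged 13.6 ± 1.85 TPM in homo and 12.4 ± 1.49 TPM in hete (log2 fold change 0.13, SE 0.12). Bmf, which responds to lost attachment, averaged 25.4 ± 2.84 TPM in homo and 25.9 ± 3.82 TPM in hete. Hrk, best known from neurons deprived of growth factors, had 3.90, 2.77, 2.31 and 3.03 TPM in homo replicates 1 to 4 and 2.26, 2.89, 3.07 and 4.20 TPM in hete replicates 1 to 4. Groups overlapped for each of these genes. The 7 BH3-only genes together summed to 129, 137, 130 and 147 TPM in homo replicates 1 to 4, against 138, 150, 143 and 142 TPM in hete replicates 1 to 4, so the groups overlapped.

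Bax and Bak1 encode the proteins that open the outer mitochondrial membrane. Bax had 86.9, 101, 103 and 101 TPM in homo replicates 1 to 4, against 103, 92.9, 103 and 82.3 TPM in hete replicates 1 to 4. Homo replicate 1 lay apart below the other homo libraries, and hete replicate 4 had the lowest value of all. The log2 fold change was 0.04 (95% interval -0.15 to 0.24, SE 0.09). Bak1 averaged 33.02 ± 2.01 TPM in homo and 32.4 ± 4.13 TPM in hete (SD, n = 4 each; log2 fold change 0.03, SE 0.09).

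Their pro-survival partner Bcl2 was the 1 member whose groups did not overlap. It had 13.5, 13.2, 14.8 and 14.2 TPM in homo replicates 1 to 4, against 13.04, 11.7, 12.1 and 13.1 TPM in hete replicates 1 to 4. No homo value reached down to a hete value, though the lowest homo and highest hete library were 13.2 and 13.1 TPM. By limma-trend the log2 fold change came to 0.14 (95% interval -0.03 to 0.32, SE 0.08, adjusted p = 0.87). Of all tested genes, 3.99% had groups that did not overlap, so 1 of 29 members is near that share. Bcl2l1, which encodes Bcl-xL, had 64.2, 56.1, 66.8 and 54.7 TPM in homo replicates 1 to 4 and 51.3, 52.1, 57.0 and 65.9 TPM in hete replicates 1 to 4 (log2 fold change 0.10, SE 0.10). In TPM, Bcl2l1 was several times as abundant as Bcl2 in every library. The ratio of Bax to Bcl2 TPM, often read as a balance between death and survival, was 6.46, 7.68, 6.95 and 7.14 in homo replicates 1 to 4 and 7.91, 7.93, 8.50 and 6.28 in hete replicates 1 to 4. Hete replicate 4 had the lowest ratio of all libraries, the other hete libraries had the highest, and the groups overlapped.

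At the caspase step no groups separated. Diablo, which frees caspases from their inhibitors, had 74.8, 75.7, 75.4 and 73.8 TPM in homo replicates 1 to 4, against 67.6, 72.9, 73.8 and 73.0 TPM in hete replicates 1 to 4. Hete replicate 1 was the low one, and the log2 fold change was 0.06 (95% interval -0.06 to 0.18, SE 0.05). Reads of Diablo may be shared with Gm49027, a gene model whose transcript matched it over 1204 bases at 99.5% identity and which had 0.56 to 1.84 TPM in homo and 0.56 to 2.74 TPM in hete. Xiap, the inhibitor that blocks caspases directly, averaged 35.4 ± 1.17 TPM in homo and 34.3 ± 1.601 TPM in hete (SD, n = 4 each; log2 fold change 0.05, SE 0.06). Casp8, the initiator behind death receptors, averaged 20.9 ± 2.57 TPM in homo and 19.5 ± 0.75 TPM in hete. Casp9, the initiator of the mitochondrial route, averaged 15.01 ± 1.75 TPM in homo and 15.2 ± 1.54 TPM in hete. Apaf1, the scaffold on which Casp9 is activated, averaged 10.3 ± 0.85 TPM in homo and 9.92 ± 1.25 TPM in hete. Log2 fold changes of these initiators and their scaffold lay between -0.02 and 0.09, and their groups overlapped.

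**Figure D4:**
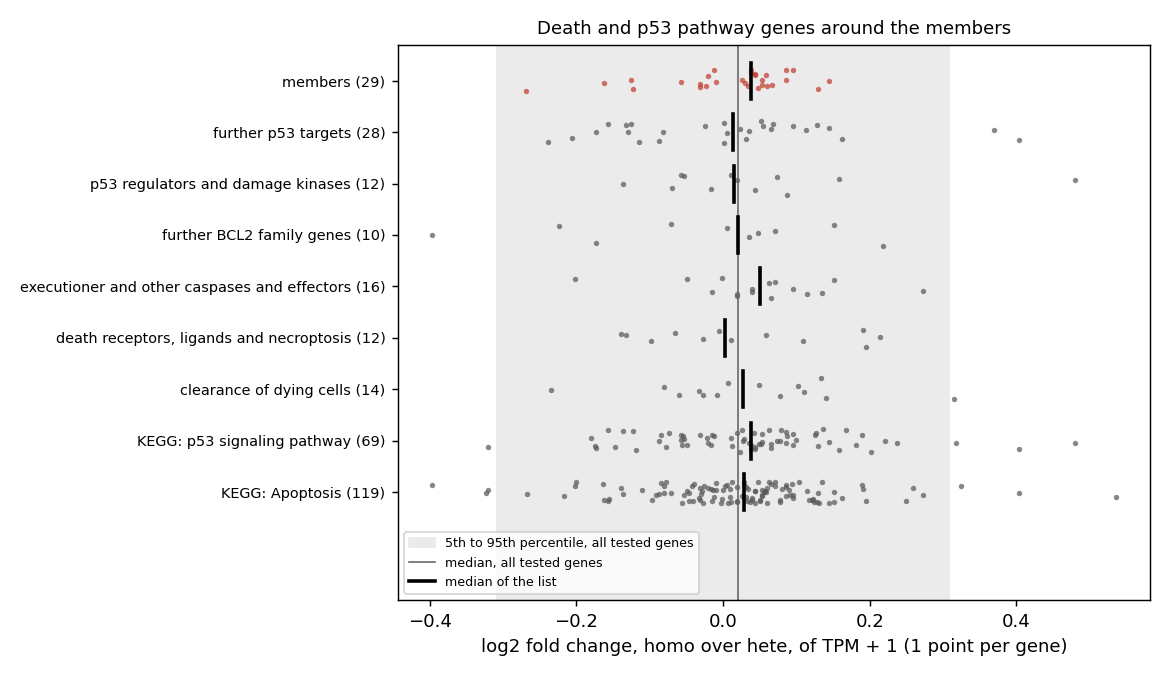
Log2 fold changes of TPM + 1, homo over hete, for the tested members and for further death and p53 pathway genes, 1 point per gene, with the number tested in brackets. Thick bars are list medians, the thin line is the median of all tested genes (0.02), and all list medians lie between 0.00 and 0.05.

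Other genes of the pathway, from lists chosen like the members, were not called either. Of 28 further p53 targets, all tested, 0 were called with adjustment over all genes. A log2 fold change above 0 was found for 17 and below 0 for 11, and the median was 0.01. The 2 with the smallest p went in opposite directions: Plk2, a kinase induced by p53, had 37.1, 39.2, 42.8 and 34.1 TPM in homo replicates 1 to 4, against 27.5, 32.3, 32.7 and 25.5 TPM in hete replicates 1 to 4, and its groups did not overlap (log2 fold change 0.37 with an SE of 0.10, adjusted p = 0.623 by limma-trend). Fdxr, a mitochondrial reductase, averaged 25.6 ± 2.14 TPM in homo and 30.4 ± 3.00 TPM in hete (SD, n = 4 each; log2 fold change -0.24 with an SE of 0.09, adjusted p = 0.76 by limma-trend). An unadjusted p under 0.05 by limma-trend was found for 3 of the 28 (10.7%, against 6.05% of all tested genes), 2 above 0 and 1 below. Besides Plk2 and Fdxr it was Pidd1, named after its values were seen. Its log2 fold change of 0.40 (SE 0.17) was the most positive of the list, and its groups overlapped. Rps27l, the most abundant of the further targets, averaged 269 ± 36.9 TPM in homo and 308 ± 26.1 TPM in hete (log2 fold change -0.21, SE 0.10).

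Regulators of p53 and damage kinases had 12 of 15 genes tested and 0 called, with a median of 0.01. Chek2, a checkpoint kinase that phosphorylates p53, had 3.31, 3.46, 4.95 and 4.26 TPM in homo replicates 1 to 4, against 2.36, 2.48, 3.04 and 2.37 TPM in hete replicates 1 to 4. Its groups did not overlap (log2 fold change 0.48 with an SE of 0.14, adjusted p = 0.675 by limma-trend). Ppm1d, a phosphatase that switches p53 signalling off, averaged 12.8 ± 0.53 TPM in homo and 11.4 ± 0.99 TPM in hete (SD, n = 4 each) without overlap (log2 fold change 0.16, SE 0.08). Chek2 and Ppm1d were the 2 genes without overlap among the 12 tested, and Plk2 the 1 among the 28 further targets, where 3.99% of all tested genes had none. Mdm4, the inhibitory partner of Mdm2 and the most abundant of this list, had a log2 fold change of -0.06 (SE 0.07). Cdkn2a, which stabilises p53 through the product Arf, was named after its values were seen. It averaged under 1 TPM and was not tested. It had 0.14, 0.41 and 0.15 TPM in homo replicates 1 to 3 and was listed at 0 in homo replicate 4 and in all hete libraries. The other untested genes of this list were Trp63 and Trp73. Trp63 averaged 0.91 TPM in homo and 0.83 TPM in hete, and Trp73 averaged 0.0525 TPM in homo and 0.055 TPM in hete.

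Further BCL2 relatives had 10 of 12 genes tested, 0 called, and a median of 0.02. Bnip3l, a mitophagy receptor and the highest of them, averaged 155.5 ± 15.3 TPM in homo and 133 ± 7.68 TPM in hete (SD, n = 4 each; log2 fold change 0.22 with an SE of 0.08, adjusted p = 0.735 by limma-trend). Bcl2l2, the pro-survival Bcl-w, averaged 37.1 ± 2.58 TPM in homo and 42.1 ± 4.87 TPM in hete (log2 fold change -0.17, SE 0.09). Executioner caspases and effectors, all 16 tested, had 0 called and a median of 0.05. Endog, a mitochondrial nuclease, averaged 14.2 ± 1.16 TPM in homo and 16.5 ± 0.71 TPM in hete (log2 fold change -0.20, SE 0.08), and Dffb, the nuclease that cuts DNA into ladders, averaged 12.8 ± 2.44 TPM in homo and 10.3 ± 1.07 TPM in hete (log2 fold change 0.27, SE 0.13).

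Receptors, ligands and necroptosis genes had 12 of 14 tested, 0 called, and a median of 0.00. Gsdme, a pore-forming gasdermin, averaged 8.84 ± 0.27 TPM in homo and 7.62 ± 1.84 TPM in hete (SD, n = 4 each; log2 fold change 0.21, SE 0.14). Tnfsf10, the ligand TRAIL, averaged 2.16 ± 0.23 TPM in homo and 1.77 ± 0.19 TPM in hete (log2 fold change 0.19, SE 0.13). Tnfrsf1a, a TNF receptor and the highest of the list, had a log2 fold change of -0.03 (SE 0.10). Genes for the clearance of dying cells had 14 of 16 tested, 0 called, and a median of 0.03. The engulfment receptor Axl had a log2 fold change of 0.13 (SE 0.08), while the integrin subunits Itgav and Itgb5 had -0.23 (SE 0.10) and -0.08 (SE 0.07). Macrophage markers, all 8 tested, summed to 221.5 to 298 TPM in homo and 224 to 270 TPM in hete, with none at 0.

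Pathway annotation in the deposited sheet, used after the file was seen, gave wider sets. Of 73 genes annotated to the KEGG p53 signaling pathway, 69 were tested, and of 134 annotated to Apoptosis, 119 were tested. In both sets 0 genes were called, with medians of 0.04 and 0.03. An unadjusted p under 0.05 was found for 6 genes of the p53 set (8.70% of those tested) and for 5 of the Apoptosis set (4.20%), against 6.05% of all tested genes.

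The authors' deposited table of gene ontology enrichment lists death terms, but through other genes. Of its 387 terms, 17 name apoptosis or cell death, and 4 of these have an adjusted p under 0.05 in the authors' deposited table, each 0.0286. They are terms on microbes altering host cell death, and Gm56656 is in all of them. The 17 terms in the authors' deposited table are filled by 5 genes, among them Gm56656, Gm21182, S100a8 and S100a9. None of the 32 members is named among the 60 genes of the authors' deposited table, and no term of it names p53. The authors' gene list behind that table counted 142 genes. Genes of it that no term names cannot be seen here, so absence from the table does not show absence from the list. Gm56656, annotated as a long non-coding RNA, is in 15 of the 17 terms. It had 1.46, 1.15, 1.66 and 1.63 TPM in homo replicates 1 to 4, against 2.86, 3.20, 5.05 and 1.64 TPM in hete replicates 1 to 4 (log2 fold change -0.70 with an SE of 0.23, adjusted p = 0.709 by limma-trend).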

How the data were processed

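Per the submitters' processing notes, fastp, HISAT2, StringTie, RSEM and DESeq2 were used with build GRCm39, without roles or versions. The TPM values deposited by the authors cover 8 libraries and add up to 1000000 in each within 1. A deposited enrichment table holds the authors' p-value for each term, raw and adjusted. The deposited splicing totals name no gene and were not used.

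The 17811 genes averaging 1 TPM or more were tested. Log2(TPM + 1) was fitted with limma 3.58.1 (trend, robust) in R 4.3.3, genotype as the only term, with Benjamini-Hochberg adjustment over all tested genes and a threshold of 0.05. Count tests were not used, because TPM values are not counts, and depth per library is unknown. Alternatives were quantile normalization, rescaling over protein-coding nuclear genes, no filter, at least 5 TPM in 4 libraries, a pseudocount of 0.1, no robust option, the replicate block, and each library left out. Members and lists were chosen with earlier results of these data known. Named are all members, Dnajc17, and per pathway list the 2 genes with the smallest p and the most abundant one; some genes that this rule names are left out here. Promoter stretches are RefSeq sequences on GRCm38.p6, 27 members matched by symbol. Transcripts of GENCODE M21 were compared with blastn 2.17.0, keeping matches of at least 95% identity over at least 200 bases. Plots used matplotlib 3.10.9 and Python 3.11.15.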

Additional observations from a re-analysis of the deposited data

Results flagged for a closer look

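A single library lay far from the other 3 of its group in 7 of the 109 groups of 4 values examined; chance gives about 1 in 20. In homo replicate 1, Bbc3 had 10.09 TPM, against 5.80 to 6.31 TPM in the other homo libraries, Bax had 86.86 TPM against 101 to 103 TPM, and S100a9 had 33.1 TPM against 4.94 to 5.67 TPM. Groups with 3 values listed at 0 were left out. In homo replicate 2, Perp had 30.97 TPM against 39.2 to 39.9 TPM, and Dffb had 16.44 TPM against 11.3 to 11.9 TPM. In hete replicate 3, Ddit4l had 4.83 TPM against 3.45 to 3.52 TPM in the other hete libraries. In hete replicate 1, Diablo had 67.61 TPM against 72.9 to 73.8 TPM.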

How the results depend on the processing

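In all 15 alternatives 0 members were called, the smallest adjusted p by limma-trend being 0.737. The members' median log2 fold change stayed between 0.00 and 0.05, and 25 to 29 members had an interval within 1.5-fold, 25 being all that were tested with the stricter filter. Genes called over the whole table were 2 as reported, 1 with no filter on low values, 1 with the replicate block and 1 to 5 with a library left out. No pairing by replicate number was visible in the values: correlations of same-numbered libraries were -0.08, -0.03, 0.05 and 0.01. Not every library correlated best with its own number. Such correlations do not show whether same-numbered libraries were matched when they were made. The log2 fold change turned sign for 17 of the 29 members with a library left out and for none under the other alternatives. As reported, the log2 fold changes of these 17 members lay between -0.13 for Polk and 0.06 for Ddit4l. Their ranges with a library left out were -0.012 to 0.11 for Zmat3, -0.031 to 0.11 for Bak1, -0.022 to 0.13 for Tnfrsf10b, -0.0038 to 0.060 for Aen, -0.042 to 0.11 for Perp, -0.19 to 0.056 for Fas, -0.092 to 0.098 for Bcl2l11, -0.12 to 0.054 for Trp53inp1, -0.22 to 0.0054 for Polk, -0.13 to 0.090 for Hrk, -0.091 to 0.066 for Bmf, -0.025 to 0.10 for Bax, -0.089 to 0.035 for Casp9, -0.0041 to 0.11 for Apaf1, -0.029 to 0.15 for Ddit4l, -0.11 to 0.13 for Bbc3 and -0.074 to 0.032 for Ccng1. The cause of these turns was not tested, and without depth no detection limit can be given.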
